A study of Arabidopsis thaliana with 6 samples.

Results

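The CYP71B genes of Arabidopsis thaliana, which encode cytochrome P450 enzymes, were followed on 6 Affymetrix ATH1 arrays of seedling RNA. A gene was a member when a probe set of the array was annotated with that gene alone under a symbol made of CYP71B and a number. Of 22746 probe sets that are no controls, 18 met this rule, each for a different gene. Of these 18 genes, 11 lie in the AT3G26 stretch of chromosome 3, where CYP71B genes follow one another, and 7 lie elsewhere.

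The 3 wild type arrays come from light-grown seedlings of the accession Col-0, and the 3 mutant arrays from light-grown seedlings of a VFB triple mutant. VFB genes encode F-box proteins of the wider family that holds the auxin receptor TIR1, and F-box proteins choose the targets that ubiquitin ligases mark for breakdown. The labels do not say which VFB genes were mutated, by which alleles, or in which accession, and the annotation names 0 single-gene probe sets for the VFB genes, so the arrays give no check of the genotype. All descriptions give an age of 10 days, but the source names of the mutant samples give 5 days. Age and genotype cannot be told apart if the source names are right. Accession and genotype cannot be told apart either if the mutant is not in Col-0. The extraction text of mutant replicate 3 names a wild type of another accession, No-0. It was kept in the mutant group by its title, and results are also given without it. Nothing in the labels tells whether each replicate was a culture of its own, so errors and p-values cover only how these samples varied, which may be technical.

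Cytochrome P450 enzymes are haem proteins that insert 1 oxygen atom into a substrate. They take their electrons from a reductase in the membrane of the endoplasmic reticulum. The CYP71 clan is the largest group of them in plants and serves mainly specialised metabolism, including defence compounds. The best known CYP71B enzyme, CYP71B15 or PAD3, makes the last step of camalexin synthesis, and CYP71B6 acts on indole-3-acetonitrile. Many other CYP71B genes, most of those in the AT3G26 stretch among them, have no well established substrate. No single-gene probe set was named here for PAD3, which was not analysed here.

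The RefSeq annotation (assembly TAIR10.1) lists 24 genes from CYP71B16 (AT3G26150) to CYP71B37 (AT3G26330), of which 18 are CYP71B genes, 2 of these pseudogenes. Their order runs CYP71B16, CYP71B17, CYP71B18, CYP71B19, CYP71B20, CYP71B21, CYP71B22, CYP71B23, CYP71B3 and CYP71B24. After 6 genes of other kinds it goes on with CYP71B25, CYP71B4, CYP71B26, CYP71B33, CYP71B34, CYP71B35, CYP71B36 and CYP71B37. No single-gene probe set was named here for 7 of the 18. CYP71B19 and CYP71B20 share a probe set, and CYP71B3, CYP71B4, CYP71B17, CYP71B18 and CYP71B33 are not analysed here. Probe sequences were not used here, so binding of 1 member's RNA to another member's probes was not tested. The genes closest in sequence are uncertain for that reason.

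Values are MAS5 intensities, which summarise the probes of a gene on a linear scale with no unit. The test took probe sets whose log2(value + 16), averaged over the arrays, exceeded the 40th percentile, which corresponds to an intensity of 108.6. Of the 11 genes of the stretch 6 were tested, and of the 7 elsewhere 4 were. Log2 changes are mutant minus wild type on the log2(value + 16) scale, with the standard error of a limma fit over all 13647 tested probe sets. Past the threshold means an adjusted p under 0.05 in that fit. CYP71B22, CYP71B23, CYP71B24 and CYP71B26 were selected on their difference between mutant and wild type in earlier results of these same arrays. The mutant against wild type values of all CYP71B genes are therefore a description, and no p-value is given for any of them.

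Within the stretch CYP71B26, CYP71B23, CYP71B24 and CYP71B35 were higher in the mutant and CYP71B22 was lower. Elsewhere CYP71B5 and CYP71B6 were higher. CYP71B26 differed most, by 3.30-fold, and the other 6 by 1.36-fold to 1.88-fold. These 7 of 10 are the tested members past the threshold, which 18.6% of all tested probe sets passed, and nothing is read from that count. The remaining 3 tested members, CYP71B34, CYP71B28 and CYP71B29, were not past it. In 8 of the 10 tested members the groups did not overlap, and the same was so for 36.1% of all tested probe sets.

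**Figure D1:**
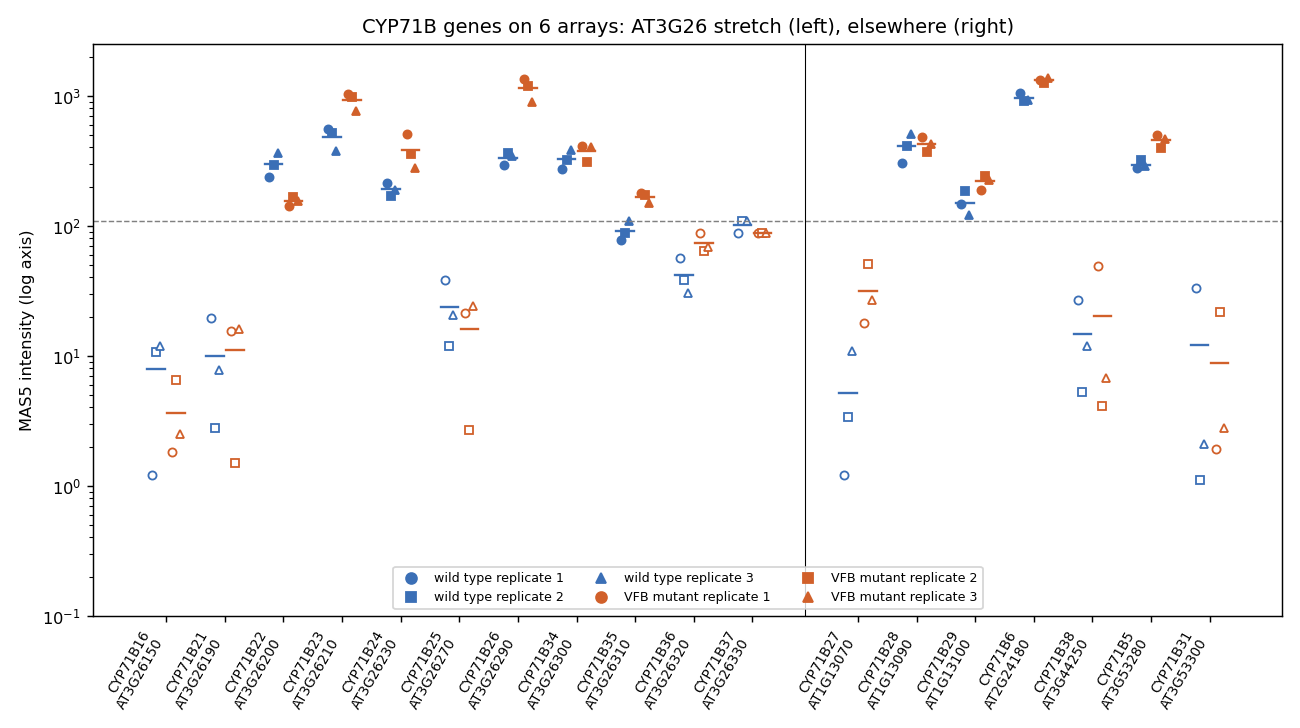
Intensity of each of the 18 CYP71B genes on each array, on a log axis, with wild type in blue, the VFB mutant in orange, a marker shape per replicate and a bar at each group mean. The dashed line marks the filter at 108.6, filled symbols are tested genes, and open symbols are the 8 genes below the filter. CYP71B26 sits at 900.4 to 1351.6 on the mutant arrays and at 292.9 to 361.5 on the wild type arrays.

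CYP71B26 (AT3G26290) was at 292.9, 361.5 and 344.8 on wild type arrays 1, 2 and 3, and at 1351.6, 1186.2 and 900.4 on mutant arrays 1, 2 and 3. Every mutant array lay far above every wild type array, and mutant replicate 3 was the lowest of the mutants. The group means were 333.1 ± 35.8 and 1146 ± 228 (SD, n = 3 each), a log2 change of 1.72 ± 0.154. Among all tested probe sets this was the 62nd largest rise of 13647, a rank that in part repeats the selection of this gene. Without mutant replicate 3 the log2 change of CYP71B26 was 1.88 ± 0.141.

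CYP71B23 (AT3G26210) was at 552, 520.6 and 376.5 in wild type and at 1023, 973 and 763.3 in the mutant. The groups did not overlap, and replicate 3 was the lowest array of both groups. Its means were 483.0 ± 93.6 and 919.8 ± 138 (SD, n = 3 each), a log2 change of 0.91 ± 0.160. Without mutant replicate 3 it was 1.04 ± 0.165.

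CYP71B24 (AT3G26230) was at 214, 170.7 and 188.3 in wild type and at 510.7, 354.2 and 280.1 in the mutant. All mutant arrays were above all wild type arrays, but the mutant arrays were spread widely. The SD of its log2 values was 0.42 among the mutants and 0.15 among the wild types, against a median over all tested probe sets of 0.157 and 0.145. Its log2 change was 0.91 ± 0.198, and 1.1 ± 0.190 without mutant replicate 3. Without mutant replicate 1, its highest array, the estimate was the lowest of those with 1 array left out, at 0.68.

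CYP71B22 (AT3G26200) went the other way. It was at 236.5, 290.7 and 361.9 in wild type and at 140.8, 164.8 and 156 in the mutant. The mutant arrays lay close together, below all wild type arrays, and wild type replicate 3 was the highest. The means were 296.4 ± 62.9 and 153.9 ± 12.1 (SD, n = 3 each), a log2 change of -0.86 ± 0.176, or a 1.82-fold lower level. Without mutant replicate 3 it was -0.87 ± 0.199. In the annotation CYP71B22 is next to CYP71B23, with no gene between them, and the pair differed in direction.

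CYP71B35 (AT3G26310) was the other stretch gene past the threshold. It was at 77.6, 87.2 and 108.3 in wild type and at 178.5, 173.2 and 149.4 in the mutant, with no overlap. Its mean level in wild type, 91.0 ± 15.7, was under the filter, so it was tested through its mutant values, where the mean was 167.0 ± 15.5. Its log2 change was 0.78 ± 0.191. Without mutant replicate 3 it was 0.85 ± 0.212. It lay just outside the 4 selected genes, whose smallest change was the -0.86 of CYP71B22.

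CYP71B34 (AT3G26300) lies between CYP71B26 and CYP71B35, with the pseudogene CYP71B33 also in between, and was not past the threshold. It was at 271.5, 322 and 381.7 in wild type and at 407.8, 311.2 and 403.3 in the mutant. The groups overlapped, since mutant replicate 2 was below wild type replicates 2 and 3. Its log2 change was 0.20 ± 0.162.

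The 5 stretch genes below the filter were dim on all arrays. CYP71B36 (AT3G26320) was at 56.3, 38.4 and 30.3 in wild type and at 87.3, 63.6 and 68.5 in the mutant, so the groups did not overlap. CYP71B37 (AT3G26330) was just below the filter, at 88.3, 107.9 and 108.8 in wild type and at 88.2, 88.4 and 87.3 in the mutant. It overlapped only through wild type replicate 1, and its 3 mutant values were almost equal.

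CYP71B16, CYP71B21 and CYP71B25 stayed between 1.2 and 38.3 on every array, with overlapping groups. At such intensities no level or difference could be read. Whether these transcripts were present was not tested, since no detection calls were used here.

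**Figure D2:**
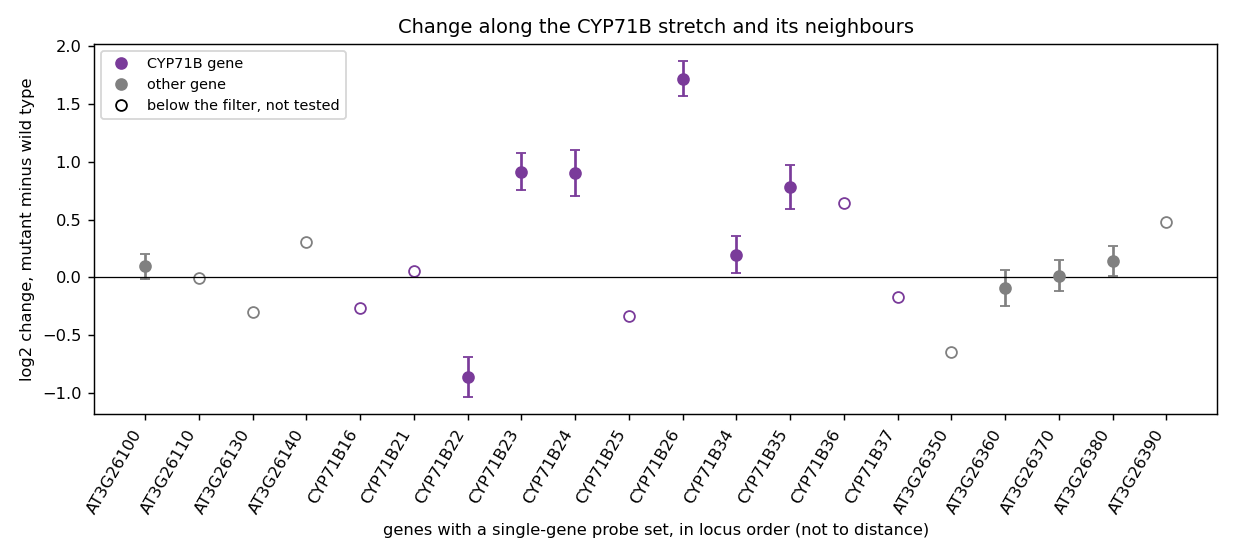
Log2 change, mutant minus wild type, of the genes with a single-gene probe set along the stretch and of 9 genes of other kinds beside it, in locus order and not to distance. Bars are standard errors of the limma fit for tested genes, and open symbols show the difference of group means, with no error, for genes below the filter. CYP71B26 stands at 1.72 and CYP71B22 at -0.86, while the 4 tested genes beside the stretch lie between -0.09 and 0.15.

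Of the 6 tested genes of the stretch 4 were called higher and 1 lower. Over all tested probe sets 18.6% were called, 8.17% higher and 10.4% lower. The median log2 change of the 6 was 0.84, against -0.045 over all tested probe sets. Nothing is read from these counts, because the genes were chosen with this contrast known. Without mutant replicate 3 the same counts of 4 higher and 1 lower were found, with a median of 0.95.

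The median rests on which genes were bright enough. With no filter all 11 genes enter and the median was 0.20. Of these 11 genes 6 had groups that did not overlap, 5 of them higher in the mutant. Over all 22746 probe sets the groups did not overlap in 27.9%, and in 11.8% the mutant was the higher one.

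Among the 7 CYP71B genes elsewhere, CYP71B5 (AT3G53280), on the other arm of chromosome 3, was at 276.2, 322.4 and 286.3 in wild type and at 500.3, 394.7 and 462 in the mutant. The groups did not overlap, and the log2 change was 0.59 ± 0.139. CYP71B6 (AT2G24180) on chromosome 2 was at 1056.6, 910.5 and 930.8 in wild type and at 1320.7, 1258.7 and 1369.8 in the mutant. It varied least between replicates among the tested CYP71B genes of the mutant group, with an SD of its log2 values of 0.06. Its log2 change was 0.44 ± 0.108, and without wild type replicate 2 it was 0.40 and no longer past the threshold, which left 1 of the 4 tested genes called.

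CYP71B28 and CYP71B29 are separate members on chromosome 1 with close locus numbers. CYP71B29 (AT1G13100) was at 145.8, 185.2 and 120.7 in wild type and at 189.7, 242.7 and 224.7 in the mutant. The groups did not overlap, but by a narrow margin, and its log2 change of 0.51 ± 0.186 was not past the threshold. CYP71B28 (AT1G13090) was at 304.2, 410.2 and 509.7 in wild type and at 479.6, 371.8 and 423.8 in the mutant. These groups overlapped fully, with a log2 change of 0.08 ± 0.177 whose sign turned when wild type replicate 1 or mutant replicate 1 was left out.

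The other 3 genes elsewhere were below the filter. CYP71B27 (AT1G13070) was at 1.2, 3.4 and 10.9 in wild type and at 17.7, 50.3 and 26.6 in the mutant, without overlap. CYP71B38 (AT3G44250) reached at most 49.3. CYP71B31 (AT3G53300), whose enzyme oxidises linalool in flowers, reached at most 33.3, and both overlapped between the groups. Of the 8 CYP71B genes below the filter in all, 2 did not overlap, CYP71B36 and CYP71B27, against 15.7% of all probe sets below it.

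Of the 4 tested genes elsewhere 2 were called higher and 0 lower, with log2 changes from 0.08 to 0.59 and a median of 0.48. Over all tested probe sets 8.17% were called higher and 10.4% lower, with a median of -0.045. The stretch ran from -0.86 to 1.72. Both the largest rise (CYP71B26) and the only lower call (CYP71B22) among the 10 tested CYP71B genes were in the stretch. Both genes were selected on this same contrast, so nothing is read from that. Whether the stretch differs from the rest of the family was not tested. Without mutant replicate 3 the median elsewhere was 0.45 and 2 genes were called, with CYP71B5 at 0.57 ± 0.159 and CYP71B6 at 0.41 ± 0.119. The use of seedlings in bulk means that fewer cells of a type and less RNA per cell cannot be told apart.

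The genes beside the stretch were compared as a chromosomal background. Single-gene probe sets were named for 9 genes of other kinds between AT3G26100 and AT3G26400 and for 6 between AT3G26780 and AT3G26880, the surroundings of PAD3. Of these 15 genes 5 were tested and 0 were called in limma, with 0 also at an unadjusted p under 0.05. Their adjusted p-values in limma ran from 0.484 to 0.961 and their log2 changes from -0.09 to 0.15, with a median of 0.10. Over all tested probe sets 18.6% were called, and 4288 of 13647 had an unadjusted limma p under 0.05. Nothing can be read from 0 of 5 beside these. AT3G26100 was at 691.1 to 734.1 in wild type and at 737.8 to 783.9 in the mutant, so its groups did not overlap, with a log2 change of 0.10 ± 0.108. AT3G26350, the next gene after CYP71B37 with a probe set named here, was dim and lower in the mutant, at 43.8 to 56.5 against 22.5 to 31.8. Both genes were named after their values were seen.

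The profiles of the CYP71B genes over the 6 arrays were compared by the root mean square difference of log2 values, each gene centred on its own mean. A smaller value means a closer profile, and all values share the same 6 arrays. These profiles hold the difference between the groups, on which CYP71B22, CYP71B23, CYP71B24 and CYP71B26 were selected. Closeness, distance and rank therefore in part repeat that selection and are only a description. CYP71B23 and CYP71B24 differed by 0.22, which made CYP71B24 the 88th closest of 7324 single-gene probe sets to CYP71B23, and CYP71B23 the 33rd closest to CYP71B24. CYP71B35 differed from CYP71B24 by 0.26 and from CYP71B23 by 0.30. CYP71B5, outside the stretch, was about as close to CYP71B23, at 0.28.

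CYP71B26 differed from CYP71B23 by 0.46, from CYP71B24 by 0.45 and from CYP71B35 by 0.49, since its change was larger. CYP71B22 was far from all of these, at 0.83 to 1.31. The nearest tested CYP71B gene to CYP71B22 was CYP71B28, at 0.50, but it ranked only 4475th of 7324 single-gene probe sets. Among the mutants, replicate 1 was the highest and replicate 3 the lowest array for CYP71B23, CYP71B24, CYP71B26 and CYP71B35. Among the wild types, replicate 1 was the lowest and replicate 3 the highest for CYP71B22, CYP71B34, CYP71B35 and CYP71B28, and the reverse held for CYP71B23.

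Other genes lay closer to each of the 4 selected genes than any CYP71B gene did. The closest to CYP71B26 were AT3G44450 (root mean square difference 0.14), AT5G02830 (0.15) and AT4G20860 (0.19). AT3G44450 was at 83.2, 98.7 and 114.6 in wild type and at 510.3, 347.6 and 254.4 in the mutant. As for CYP71B26, the groups were far apart and mutant replicate 3 was the lowest mutant. In wild type AT3G44450 averaged under the filter, so it was tested through its mutant values, and nothing is read from its gap.

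The closest to CYP71B23 were AT1G51790 (root mean square difference 0.08), AT1G70810 (0.08) and AT3G22060 (0.11). AT1G51790 was at 283.5, 247.3 and 176 in wild type and at 536.6, 550 and 395.7 in the mutant, so replicate 3 was the lowest array of both groups, as for CYP71B23. The closest to CYP71B24 were AT3G04000 (0.12), AT1G26420 (0.12) and AR781 (0.14). The closest to CYP71B22 were AT5G06930 (0.10), AT3G50340 (0.10) and AT3G13175 (0.11), with AT5G06930 at 182.3, 211.8 and 231.9 in wild type and 100, 106.1 and 116.4 in the mutant. In the mutant AT5G06930 averaged just under the filter, so it was tested through its wild type values. AT1G26420, at 78.6 to 90.2 in wild type, was under the filter there and was tested through its mutant values.

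**Figure D3:**
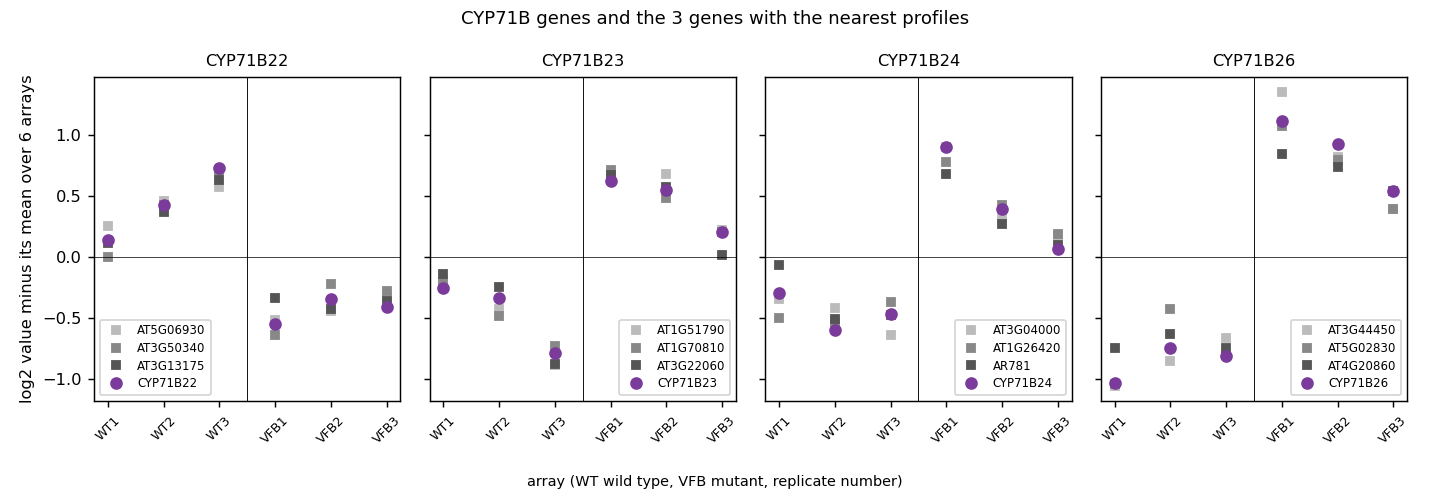
Log2 value minus its mean over the 6 arrays for CYP71B22, CYP71B23, CYP71B24 and CYP71B26 (purple circles) and for the 3 single-gene probe sets with the nearest profile to each (grey squares), on wild type (WT) and mutant (VFB) arrays. The nearest profiles lie within a root mean square difference of 0.08 to 0.19 of the CYP71B gene.

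Other P450 genes gave little to set beside the CYP71B genes. By symbol 4 P450 genes of other subfamilies had a single-gene probe set named here, CYP51G2, CYP78A9, CYP79A2 and CYP84A4. All 4 were below the filter, at 89.2 or less. The annotation names no gene for 8730 probe sets, so P450 genes that it leaves unnamed were not analysed. The lists of P450 genes of camalexin and glucosinolate, phenylpropanoid, brassinosteroid, gibberellin and abscisic acid, and jasmonate metabolism held 1 gene with a probe set named here, CYP71B6. The list of cutin, suberin and wax P450 genes matched the symbol LCR, which here belongs to an F-box gene and not to the P450 of that name. The list of electron donors of P450 enzymes held 0.

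The arrays as a whole separated by group, and their log2 values correlated, over the tested probe sets, at 0.978 to 0.985 within groups and 0.940 to 0.956 between them. Genes are not independent replicates in these correlations. The seedling label was checked on photosynthesis genes and a root gene. RCA, LHCB4.1 and PRK ran from 10165.9 to 27350 and the root gene PYK10 from 12387.1 to 17028 over all arrays. The lists held 11 photosynthesis and 7 root genes, of which only 3 and 1 had a single-gene probe set named here. All 3 photosynthesis genes were higher on every mutant array than on any wild type array. Over all tested probe sets the groups did not overlap in 36.1%, so nothing is read from these 3 about photosynthesis genes at large. PRK, a Calvin cycle enzyme, was called higher, with a log2 change of 0.43 (limma, adjusted p = 0.0166), while RCA (0.28) and LHCB4.1 (0.19) were not past the threshold. The call of PRK was lost in limma under quantile normalization (adjusted p = 0.0765), with no filter (0.0555), and when wild type replicate 1 (0.0685) or mutant replicate 2 (0.0661) was left out, and RCA passed after median centring (0.0465). PYK10 overlapped between the groups (0.20). The part of these markers in the CYP71B values was not tested. Of the other markers, 0 seed and 0 flower markers had a probe set named here. The 3' to 5' ratio of the actin control probe sets, a sign of RNA quality, was 2.55 to 3.00 in wild type and 3.19 to 3.56 in the mutant (exact two-sided permutation p = 0.1, the smallest possible with 3 against 3, adjusted p = 0.3 over 3 ratios). That of GAPDH was 1.08 to 1.19 and 1.04 to 1.20 (exact permutation p = 1, adjusted p = 1), and that of ubiquitin 1.33 to 1.53 and 1.46 to 1.89 (exact permutation p = 0.3, adjusted p = 0.45). The part of RNA quality in the CYP71B values was not tested.

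The log2 changes were recomputed under 15 alternatives, with other offsets, scalings, filters, variance models, a block for the replicate number or 1 array left out. CYP71B26 stayed between 1.59 and 1.88, CYP71B23 between 0.75 and 1.04, CYP71B24 between 0.68 and 1.1, CYP71B35 between 0.58 and 0.89, and CYP71B22 between -1.01 and -0.71. With a filter at the 60th percentile CYP71B22, CYP71B24 and CYP71B35 were not tested. Centring the arrays on their medians moved the median change of all tested probe sets by 0.09, and CYP71B22 stayed lower and the other 4 higher under both other scalings.

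**Figure D4:**
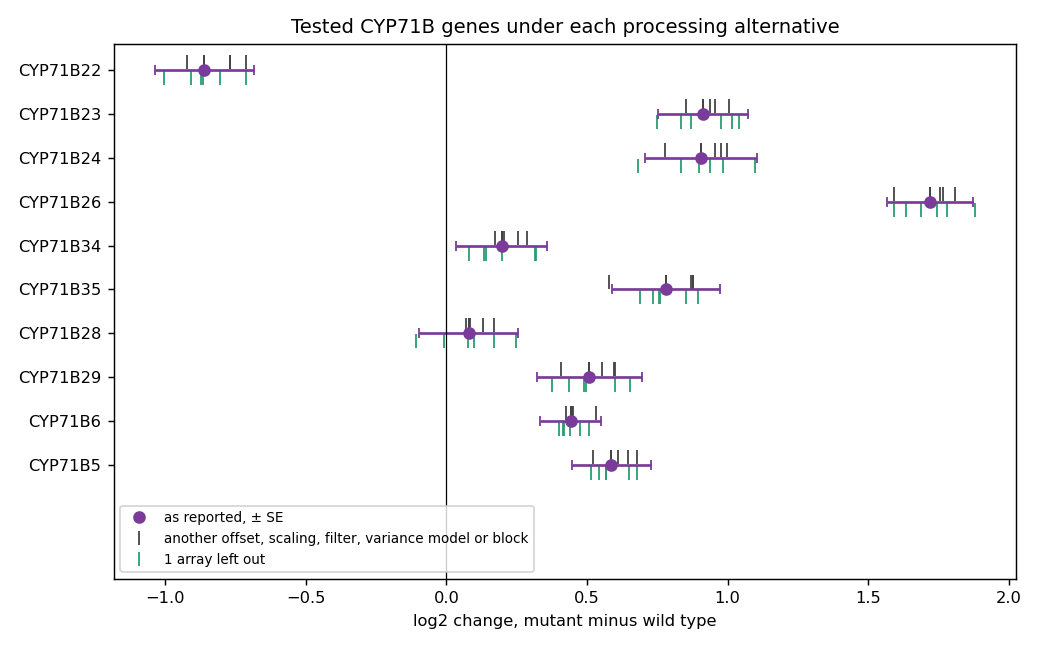
Log2 change, mutant minus wild type, of the 10 tested CYP71B genes as reported (circle, with its standard error), under other processing settings (dark ticks) and with 1 array left out (green ticks). The ticks of CYP71B26 lie between 1.59 and 1.88, those of CYP71B22 between -1.01 and -0.71, and those of CYP71B28 fall on both sides of 0.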

How the data were processed

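Intensities of 22810 probe sets on 6 ATH1 arrays were used as deposited. They were made with MAS5, per the submitters' processing notes. Its version is not given in the sources used here. The trimmed mean of every deposited array was 500.0, so 1 scaling factor per array had been applied. The 64 control probe sets were left out of the tests. With 3 arrays per group, the number of arrays limits the precision.

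Gene symbols were taken from the platform annotation and set against RefSeq (TAIR10.1) by Entrez number. The annotation names 1 gene for 13513 probe sets, several for 503 and none for 8730, and 13436 of the 13513 matched a RefSeq gene. Only gene names, kinds and order were taken from RefSeq.

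The comparison used limma 3.58.1 (R 4.3.3) on log2(value + 16), with a mean-variance trend and Benjamini-Hochberg adjustment. The fit was also run on simulated data, whose outcome is not given here and is not used as support for the calls. The block on the replicate number was an alternative only, since same-numbered arrays did not deviate together. The members, lists and rules were chosen with earlier results of these data known. Named genes are all CYP71B genes, called neighbours, list members and, for each of 4 genes, the 3 nearest profiles.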

Additional observations from a re-analysis of the deposited data

How the results depend on the processing

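The changes of CYP71B22, CYP71B23, CYP71B24, CYP71B26, CYP71B34, CYP71B35 and CYP71B5 kept their direction and their side of the threshold or moved by less than the spread between replicates under every alternative that tested them. With the filter at the 60th percentile 3 of the stretch genes were tested and 2 were called, because fewer probe sets enter. With no filter the median of the stretch was 0.196 over 11 genes, because dim genes enter. Without wild type replicate 2 the genes called elsewhere fell to 1, through CYP71B6 (0.402), and the cause was not tested. Leaving out 1 array gave 1 to 2 calls elsewhere. CYP71B29 passed the threshold under quantile normalization (0.595) and median centring (0.599), which made 3 calls elsewhere. CYP71B28 turned to -0.109 without wild type replicate 1 and to -0.009 without mutant replicate 1, and its highest value with 1 array left out was 0.249. With an offset of 64 the like-profile genes AT5G06930 and AT1G26420 moved to -0.666 and 0.687.

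Calls over all probe sets numbered 2541, from 1696 to 2266 with 1 array left out and from 1902 to 2562 otherwise. As deposited 1115 were higher and 1426 lower, after median centring 1556 and 960. Same-numbered arrays had correlations of -0.196, 0.016 and -0.167 between their deviations from the group means, which gave no sign of pairing by number. Whether replicates were grown or handled in pairs cannot be told from these correlations. With a replicate block 1988 probe sets and the same counts of 5 stretch genes and 2 genes elsewhere were called. Dim intensities, with no detection calls used, limit what can be said of the 8 CYP71B genes below the filter.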

Other observations

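The probe set that CYP71B19 and CYP71B20 share, and so belongs to no single gene, was at 1106.4, 1004 and 1155.9 in wild type and at 1573.1, 1320.2 and 1472.4 in the mutant. The groups did not overlap, and its log2 change was 0.41 ± 0.112. The pseudogene CYP71B30P was at 1.7 to 36.2 over all arrays.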
